A study of Rattus norvegicus with 6 samples.

Results

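The miRNAs of the lumbar spinal cord were described in the 3 sham-operated rats of a series of 6 rats, without the rats that carried a tumor. Sham-operated rats had received heat-killed Walker 256 cells, a rat mammary carcinoma line, in the marrow cavity of the left tibia, so they were operated animals and not naive ones. The cord was collected on day 14 from the injected side of the lumbar enlargement after the meninges had been removed, and 1 small RNA library was made per rat. The sample labels give the strain as Wistar, whereas the methods of the study give Sprague Dawley. All 753 mature miRNAs of the count table were used, and each count was scaled to counts per 1000000 (CPM) of the total of its library. Total counts were 14300951, 15365419 and 14154479 in sham-operated rats 1, 2 and 3, so that 3 counts, taken as the lowest amount told from 0, corresponded to 0.210, 0.195 and 0.212 CPM. These limits cover counting error only, as the reads carried no stated molecular identifiers and several can stem from 1 molecule. The members were fixed by the labels and every value below is a description, with a mean ± SD over the 3 rats. Comparing 2 miRNAs within 3 libraries cannot give a two-sided exact p below 0.25, so no test between miRNAs was run.

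A miRNA is cut from a hairpin precursor, and either arm of the hairpin, named 5p or 3p after its side, can be loaded into an Argonaute protein. The loaded strand pairs with messenger RNAs mainly through its seed, bases 2 to 8 from its 5′ end, and lowers their translation and stability. Mature miRNAs with the same seed form a family that can share targets. Nervous tissue is known for high levels of let-7, miR-9, miR-124, miR-125 and miR-128, and the myelinating oligodendrocytes of the cord for miR-219 and miR-338.

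The sequences below belong to the most abundant miRNAs and are shown because most of the counts fell on them. They were taken from RefSeq (GRCr8), run 5′ to 3′ and carry the seed in capitals. Where several of the same seed are shown, they stand together. The first group holds 5 members of the let-7 family, which differ outside the seed by very few bases.
let-7g-5p: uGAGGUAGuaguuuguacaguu
let-7i-5p: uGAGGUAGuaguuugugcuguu
let-7c-5p: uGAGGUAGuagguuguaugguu
let-7f-5p: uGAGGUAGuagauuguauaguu
let-7a-5p: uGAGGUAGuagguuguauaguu
The next 3 are the leading miRNAs whose seed no other listed miRNA with a sequence carried.
miR-127-3p: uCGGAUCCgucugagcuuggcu
miR-9a-5p: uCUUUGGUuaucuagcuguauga
miR-128-3p: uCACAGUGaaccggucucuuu
The last group holds the leading members of the miR-125, miR-26, miR-100, miR-181 and miR-30 families.
miR-125b-5p: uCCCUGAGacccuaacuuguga
miR-125a-5p: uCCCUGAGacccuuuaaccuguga
miR-26a-5p: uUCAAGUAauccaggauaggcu
miR-100-5p: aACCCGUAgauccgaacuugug
miR-99b-5p: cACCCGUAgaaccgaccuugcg
miR-181a-5p: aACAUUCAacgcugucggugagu
miR-30c-5p: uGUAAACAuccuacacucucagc

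The labelled tissue was checked against lists of miRNAs that are known for particular cells or tissues. All 12 miRNAs of the neural list were above 3 counts in every library, with summed levels of 149134, 144232 and 151357 CPM in rats 1, 2 and 3. All 5 of the oligodendrocyte list (22112 ± 1576 CPM, SD, n = 3) and all 6 hosted by the HOX clusters (20585 ± 2016 CPM), which mark the trunk levels of the body axis, were above that limit too. The largest member alone held 42.4% of the neural, 72.7% of the oligodendrocyte and 80.7% of the HOX sum. Being above 3 counts did not set these lists apart, since 468 of all 753 miRNAs were, as were all 6 of the liver, gut and pancreas list, 5 of 7 of the muscle list and 5 of 7 of the epithelial list. Those lists differed in level and summed to 568 ± 143 CPM, 263 ± 70.0 CPM and 23.5 ± 1.79 CPM in that order. Of the 6 listed miRNAs of early embryo cells, miR-290, miR-291a-3p, miR-292-3p, miR-293-3p and miR-294 were at 0 in every library and miR-295-3p had 0, 2 and 1 counts, but zeros in this table were not used to judge the tissue, for reasons given below. By summed level the neural, oligodendrocyte and HOX lists thus stood above the liver, gut and pancreas, muscle and epithelial lists in each rat. The vascular list (25400 ± 4843 CPM) overlapped in range with the oligodendrocyte and HOX lists, and the choroid plexus (4246 ± 532 CPM), white blood cell and microglia (3247 ± 345 CPM) and sensory ganglion lists (2171 ± 107 CPM) lay between. In bulk tissue fewer cells of a type and less of a miRNA per cell cannot be told apart.

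A single miRNA, miR-99a-5p, stood above all others. Its level was 124753, 123116 and 132203 CPM in rats 1, 2 and 3, or 12.7% ± 0.484 of all counts. It is processed from a precursor that neighbours that of let-7c. Its lowest library lay far above the highest library of miR-127-3p, the next in order. miR-127-3p, which comes from the imprinted Dlk1-Dio3 region, had 63030, 68360 and 61112 CPM. miR-9a-5p, a regulator of neural progenitors, had 64261, 57061 and 67347 CPM. miR-128-3p, a miRNA of neurons, had 62562, 66714 and 57667 CPM. These 3 changed places between the libraries and their ranges overlapped, so their order was not fixed by these rats. let-7g-5p had 62055, 58089 and 59499 CPM and overlapped with all 3 of them. let-7i-5p had 56889, 56762 and 53504 CPM, below let-7g-5p in every library and without overlap. Both are members of the let-7 family, which accumulates as cells differentiate.

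A gap followed let-7i-5p, as miR-125b-5p reached 38464 ± 2046 CPM and its highest library lay below the lowest of let-7i-5p. Places 8 to 10 were taken by miR-26a-5p (34163 ± 3996 CPM), let-7c-5p (28456 ± 4250 CPM) and miR-100-5p (27750 ± 389 CPM), and the ranges of neighbours in this stretch overlapped. miR-100-5p was again apart from the next, miR-30c-5p (22793 ± 1795 CPM). From miR-30c-5p down to place 20 no neighbours had ranges that were apart. This stretch held miR-181a-5p (21526 ± 1994 CPM), let-7f-5p (21203 ± 870 CPM), miR-328a-3p (19917 ± 2985 CPM) and let-7a-5p (17377 ± 2105 CPM). miR-126a-3p, which marks endothelial cells, came next with 15944, 13958 and 20684 CPM, and miR-10a-5p, which lies within a HOX cluster, with 15662, 15376 and 18791 CPM. The oligodendrocyte miRNA miR-219a-2-3p had 16228, 17061 and 14945 CPM. miR-125a-5p (13287 ± 1807 CPM) and miR-27b-3p (12772 ± 1866 CPM) closed the first 20. Of the 20 pairs of neighbours from place 1 to place 21, held by let-7b-5p, 6 were in the same order in all 3 libraries and 4 had ranges apart. Counts were not calibrated against known amounts of RNA, so the order is one of read counts and not of molecules.

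**Figure D1:**
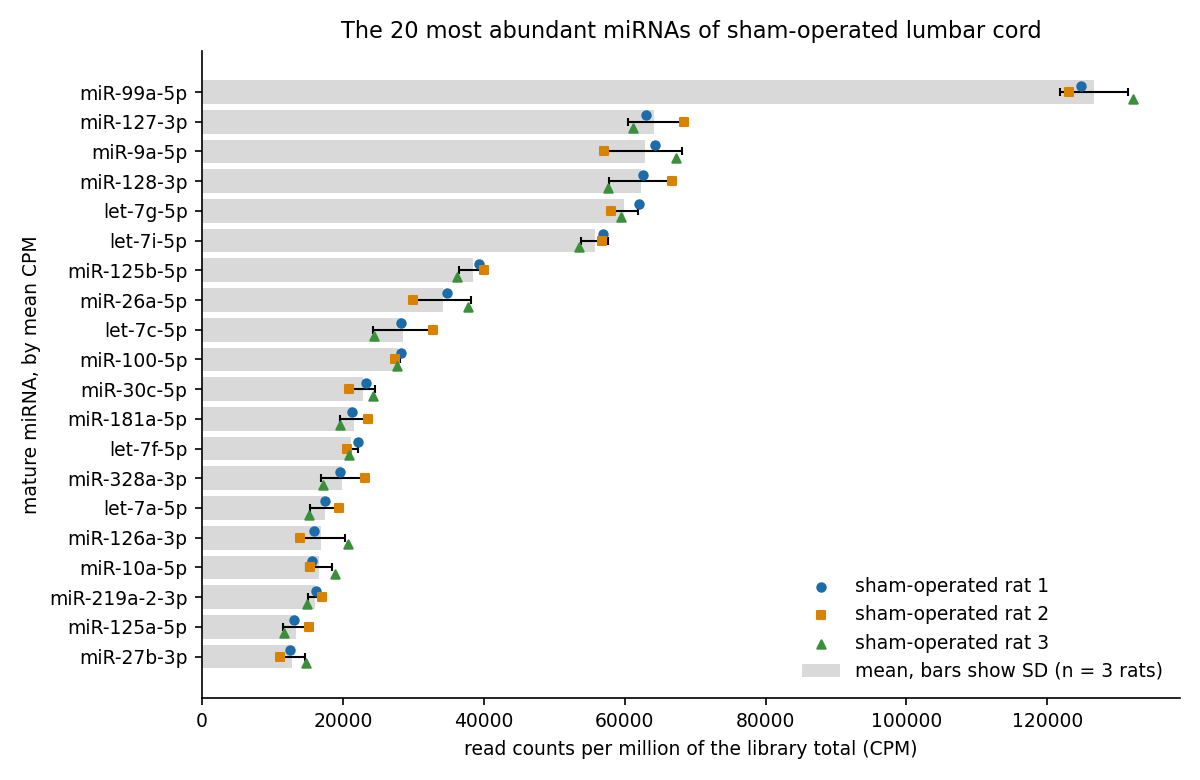
Level in CPM of the library total of the 20 miRNAs with the highest mean. Gray bars are means over the 3 sham-operated rats, black lines the SD, and the colored points the single rats. miR-99a-5p stands at 126691 CPM, a group of 5 between 55718 and 64167 CPM, and the rest at 38464 CPM and below.

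The counts were concentrated on few miRNAs to nearly the same degree in each rat. The 5 most abundant held 37.6% ± 0.233 of the counts, the 10 most abundant 56.0% ± 0.336 and the 20 most abundant 73.9% ± 0.316. In each library, 8 miRNAs were enough to reach 50% of its counts. For 90% it took 44, 44 and 45 miRNAs, and for 99% it took 154, 151 and 162, the most being in rat 3. Between 10000 and 100000 CPM there were 22 miRNAs with 64.6% of the counts, and between 1000 and 10000 CPM there were 54 with 18.2%. The 109 miRNAs between 100 and 1000 CPM held 3.89%, and the 139 between 10 and 100 CPM held 0.568%.

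At the other end of the range, 468 miRNAs had more than 3 counts in every library. The lowest of these by mean was miR-3084a-5p with 0.321 CPM, so the levels above that limit spanned 394595-fold, or 5.60 orders of magnitude. This span rests on the limit chosen and was 5.17 orders with a minimum of 10 counts and 6.27 with a minimum of 1. The median level was 46.7 CPM over the 468. Another 237 miRNAs had 3 or fewer counts in every library, and 168 of these were listed at 0 in all 3. Counts of at least 1 appeared in 558, 553 and 543 miRNAs of rats 1, 2 and 3.

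A 0 in this table could not be read as absence from the cord. Among the miRNAs listed at 0 in every library were miR-21-5p, miR-186-5p, miR-98-5p, miR-301a-3p and miR-28-3p, which many tissues express and which were picked out once their values were known. Of the 280 precursors with both arms in the table, 26 had both arms at 0, those of miR-21, miR-186, miR-98, miR-142, miR-193a, miR-301a, miR-365 and miR-451 among them, 48 had 1 arm at 0 and 206 had neither. What set these zeros was not tested.

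**Figure D2:**
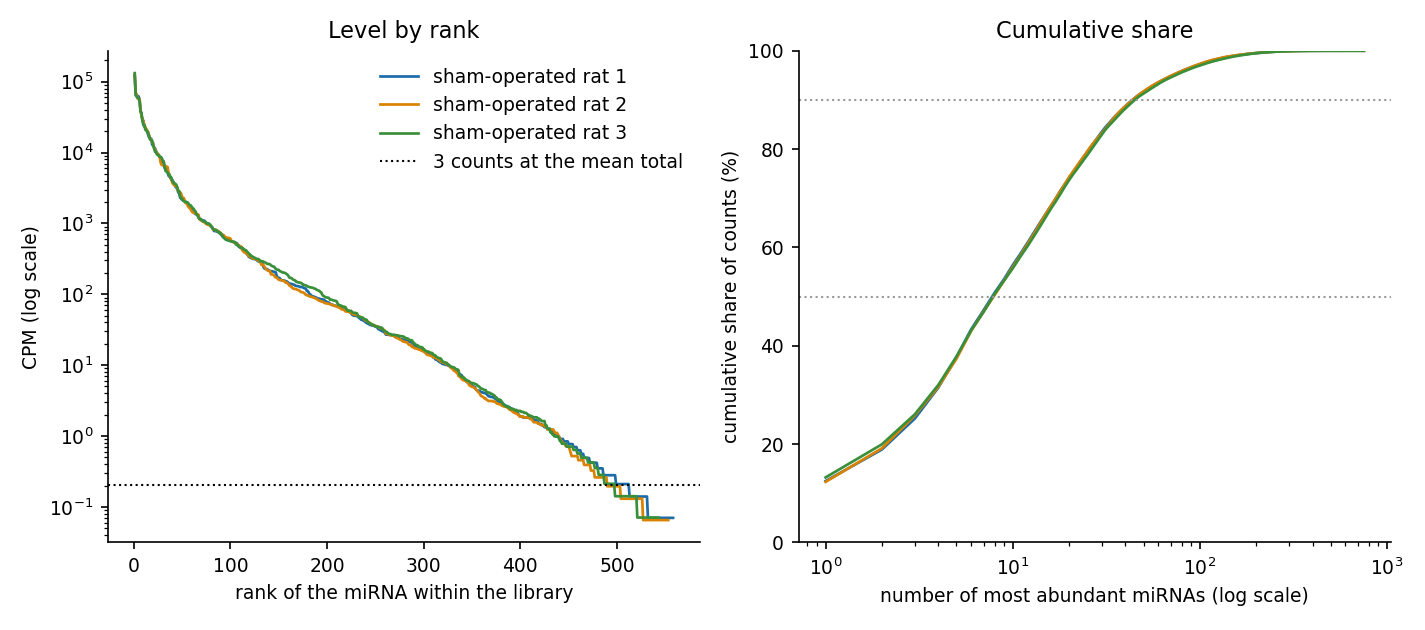
Left, the level of each miRNA with a count against its rank within the library, with the level on a log scale. Right, the share of counts held by the most abundant miRNAs against their number. The 3 rats follow nearly the same curve, which passes 50% at 8 miRNAs and 90% at 44 or 45.

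Mature sequences were found in RefSeq for 687 of the 753 miRNAs, which held 83.5% ± 0.354 of the counts. miR-99a-5p, miR-328a-3p, miR-30d-5p and miR-124-3p were among those without one and are in no seed family here. The 687 carried 581 distinct seeds, and 510 of these seeds belonged to 1 miRNA only. Counting in seeds in place of miRNAs, 5 seeds were enough for 50% of the counts with a sequence and 29 for 90%. The let-7 family led with 21.3%, 21.7% and 19.6% of all counts in rats 1, 2 and 3. Its share exceeded that of miR-99a-5p in every library.

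Within the let-7 family, let-7g-5p and let-7i-5p led, and let-7g-5p alone held 28.7% of the family. let-7b-5p (11947 ± 1730 CPM), let-7d-5p (8549 ± 938 CPM) and let-7e-5p (5323 ± 915 CPM) were lower, and miR-98-5p, the 9th member, was listed at 0. let-7a-5p differed by 1 base from let-7c-5p, let-7e-5p and let-7f-5p. How reads that match several members were assigned is not stated in the sources used here, so the split within the family is uncertain to that extent.

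miR-127-3p (6.42% ± 0.375), miR-9a-5p (6.29% ± 0.528) and miR-128-3p (6.23% ± 0.453) followed let-7, each as the only carrier of its seed among the miRNAs with a sequence. miR-99a-5p, in no family here, alone held more counts than any seed but that of let-7, so a family that included it would stand next to let-7. The miR-125 family, with roles in neuronal differentiation, held 5.24%, 5.53% and 4.79% of the counts, and miR-125b-5p made up 74.2% of it. In the miR-26 family (3.82% ± 0.449) miR-26a-5p made up 89.5%. The seed of miR-100-5p and miR-99b-5p held 3.73% ± 0.0840, without miR-99a-5p. The miR-181 family held 3.10% ± 0.276 and the miR-30 family 2.50% ± 0.234. In the former miR-181a-5p made up 69.4%, and in the latter miR-30c-5p made up 91.0% of the 4 members with a sequence. miR-30d-5p, with 7511 ± 1362 CPM, is not in that sum. With it the miR-30 family would stand above the miR-181 family by mean and in rats 1 and 3, but below it in rat 2. The endothelial miR-126a-3p (1.69% ± 0.346) was the 10th by mean among the seeds with a sequence. Its range overlapped with those of miR-10a-5p and miR-219a-2-3p, the next in order. miR-328a-3p, which has no sequence here, held 1.99%. Together the first 10 seeds held 59.8% ± 1.19 of all counts.

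**Figure D3:**
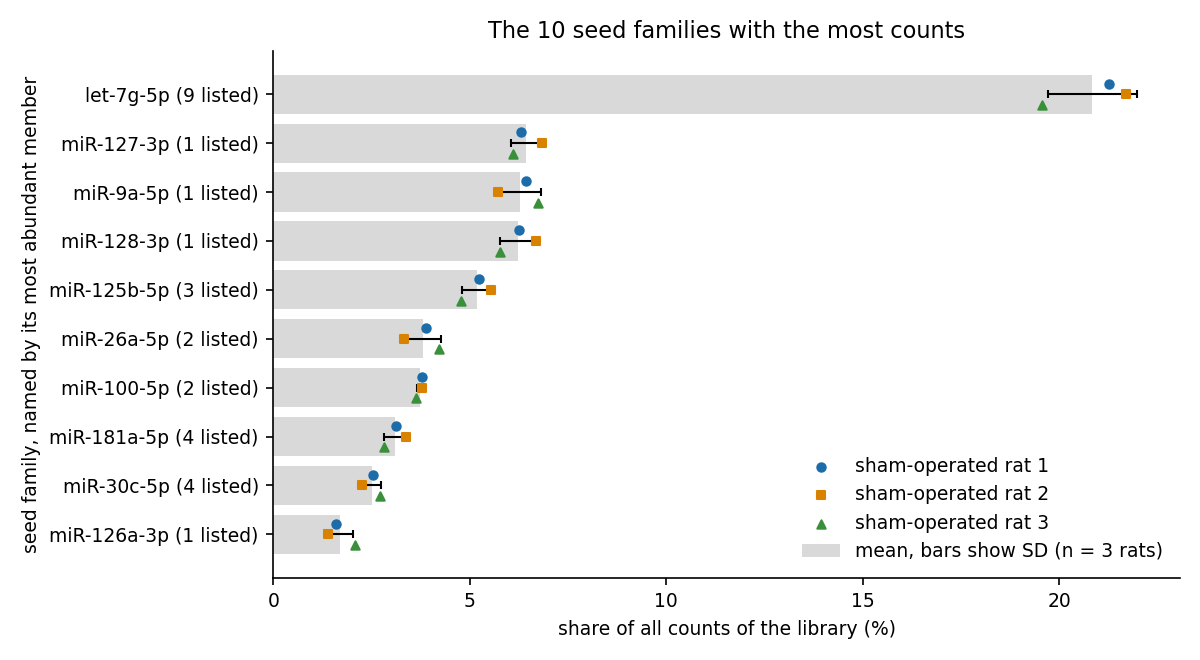
Share of all counts of each library held by the 10 leading seed families, each named by its most abundant member with the number of listed members in parentheses. Gray bars are means over the 3 sham-operated rats, black lines the SD, and points the single rats. let-7 stands at 20.8% and each of the others below 7%, with miR-99a-5p (12.7%), which has no sequence here, in none of them.

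Shares of counts were also compared with shares of miRNAs by the 5′ base and the length of the mature sequence. miR-99a-5p, with 12.7% of all counts, is in none of these shares and would raise that of its own class. U was the first base of 36.2% of the miRNAs with a sequence, and these held 78.1% ± 0.666 of the counts with a sequence. A was first in 29.4% and held 15.9% ± 0.387, C was first in 21.8% and held 5.14% ± 0.251, and G was first in 12.5% and held 0.775% ± 0.0301. A U at the 5′ end is known to fit the pocket of Argonaute that holds this base. miRNAs annotated with 22 bases were 45.7% of those with a sequence and held 61.0% ± 0.793 of these counts. Those with 23 bases were 16.4% and held 21.1% ± 0.845, whereas those with 21 bases were 22.1% and held 15.2% ± 0.256. The 38 miRNAs of 20 bases held 0.165% ± 0.00510. The methods of the study name a length of 21 to 22 bases for known miRNAs, whereas the table lists miRNAs annotated with 17 to 25 bases, so how read length entered the counts is not clear from the sources used here and its part in these shares was not tested.

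Either arm of a precursor could lead. Both arms were listed for 280 precursors, and 219 of these had a mean of at least 10 counts over both arms. The 5p arm was higher in all 3 libraries for 107, the 3p arm for 103, and 9 were undecided because the same arm was not higher in all 3. With rat 1, 2 or 3 left out in turn, 8, 7 and 3 were undecided, where only 2 libraries had to agree. Among the 144 precursors with at least 1000 counts, the 5p arm led in 79 and the 3p arm in 64, whereas among the 75 with fewer counts they led in 28 and 39. By counts the 5p arm weighed more, since names ending in 5p held 70.2% ± 0.497 of all counts and names ending in 3p held 29.1% ± 0.517. These shares include names whose other arm is not listed. Of all counts, miR-99a-5p alone held 12.7% and the 5p strands of the let-7 family 20.8%. The weaker arm of the 219 precursors held 2.52%, 2.47% and 2.95% of the counts of both arms in rats 1, 2 and 3.

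The lead of the stronger arm was wide in most precursors. In 27 of the 219 the weaker arm was listed at 0 in every library, which could not be read as absence. Over the 192 with counts in both arms the median ratio of the counts, summed over the 3 libraries, was 21.8-fold, with arms of 1 to 3 counts set to 3. The ratio was over 10-fold for 110 of these and over 100-fold for 59. Within 2-fold were 24 precursors. With 1000 counts or more over both arms the median ratio was 35.3-fold (134 precursors), and with fewer it was 6.08-fold (58). With the arms at 0, and those of 1 to 3 counts, set to 3 counts these medians were 58.6-fold over 144 and 13.1-fold over 75 precursors, and that over all 219 was 30.0-fold.

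miR-100, miR-149, miR-26a, miR-185 and let-7g were the most lopsided toward the 5p arm, with an arm at 0 set to 3 counts. miR-100-5p had 1215688 counts over the 3 libraries against 7 for miR-100-3p, which is 173670-fold higher. let-7g-5p had 2622195 counts against 123, and miR-26a-5p had 1491980 against 50. miR-149-5p had 195801 and miR-185-5p 70964 counts, and the 3p arms of both were listed at 0, so their place in this order rests on those zeros. Toward the 3p arm the most lopsided were miR-328a, miR-29a, miR-107, miR-758 and miR-320. miR-29a-3p, a regulator of extracellular matrix genes, had 325619 counts against 14, or 23258-fold more. miR-328a-5p, miR-107-5p and miR-320-5p were listed at 0, and miR-758-5p had 2 counts. Their 3p arms had 876552 counts for miR-328a, 41070 for miR-107, 23573 for miR-320 and 27747 for miR-758, and the place of the first 3 again rests on a 0.

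Precursors from both ends and from the middle of this range are shown to place the arms in the hairpin. The first 2 have the dominant arm in capitals and the last 2 lines give miR-132 with each arm in capitals in turn (RefSeq, GRCr8, 5′ to 3′).
miR-100, 5p arm: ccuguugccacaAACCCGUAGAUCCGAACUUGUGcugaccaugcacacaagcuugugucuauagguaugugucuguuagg
miR-29a, 3p arm: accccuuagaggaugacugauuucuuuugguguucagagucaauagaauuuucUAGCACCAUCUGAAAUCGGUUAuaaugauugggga
miR-132, 5p arm: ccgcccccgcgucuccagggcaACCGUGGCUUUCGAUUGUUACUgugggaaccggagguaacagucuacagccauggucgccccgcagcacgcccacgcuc
miR-132, 3p arm: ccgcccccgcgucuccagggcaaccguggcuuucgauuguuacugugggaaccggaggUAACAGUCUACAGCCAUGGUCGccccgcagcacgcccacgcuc

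In all, 6 precursors with at least 1000 counts had arms within 1.5-fold of each other or undecided. For miR-132, an activity-dependent miRNA of neurons, the 5p arm had 14921, 16626 and 13981 counts and the 3p arm 11956, 14705 and 11812, so the 3p arm held 45.8% of them and was lower in each library. In miR-411 the 3p arm held 40.2% and in miR-485 it held 43.7%. miR-409a was undecided, with 3338, 3359 and 3556 counts for the 5p arm and 4162, 4902 and 3488 for the 3p arm, rat 3 being the one in which the 5p arm was higher. The 3p arm was slightly ahead in miR-674 (58.5%) and miR-181c (56.7%) in all 3 libraries. miR-411, miR-485 and miR-409a are members of the imprinted Dlk1-Dio3 region.

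In 183 of the precursors with a dominant arm both arms had a sequence, and here the dominant arms differed from the others in their first base. The dominant arm started with U in 89 (48.6%) and the other arm in 36 (19.7%). In 71 precursors only the dominant arm started with U, in 18 only the other arm did, in 18 both did and in 76 neither did. The share with U was 54.1% for the 98 dominant 5p arms and 42.4% for the 85 dominant 3p arms. Median GC content was 47.6% in dominant and 50% in other arms. No test was run on these counts, because arms of paralogous precursors share sequence.

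**Figure D4:**
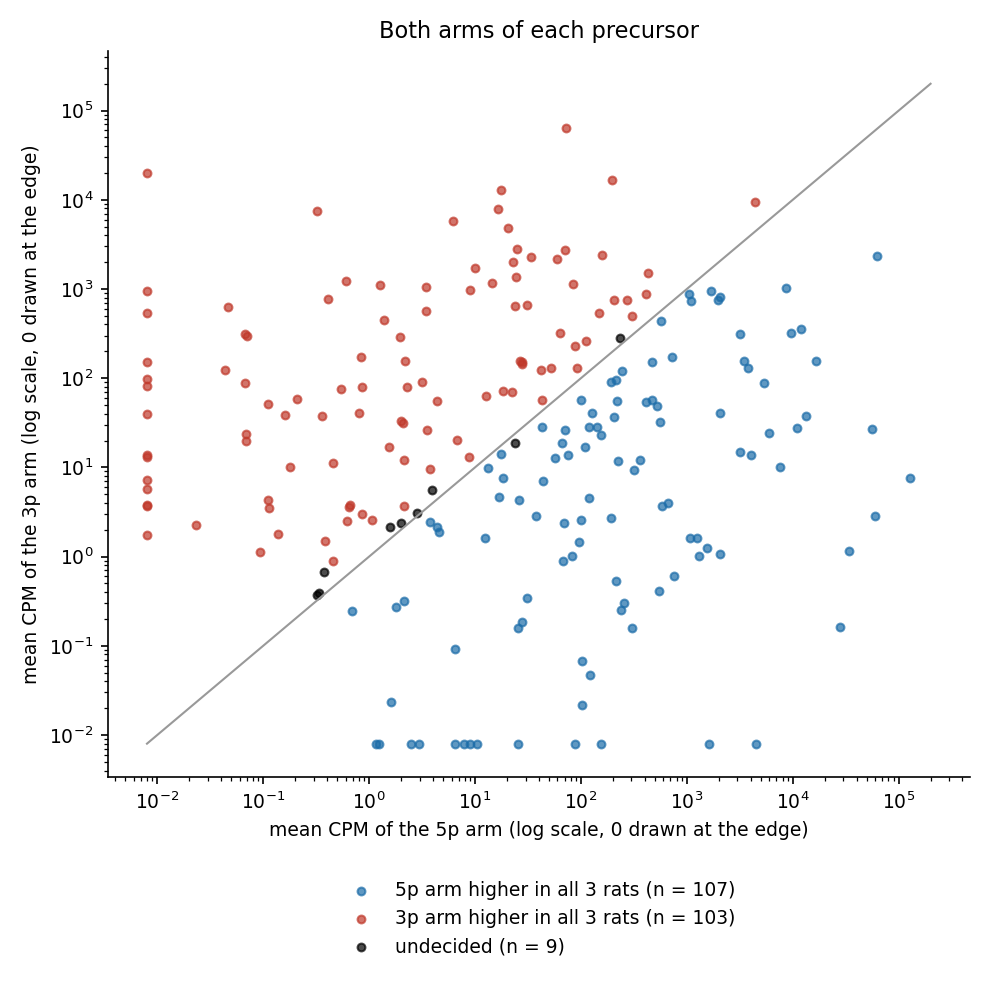
Mean level of the 3p arm against that of the 5p arm, both in CPM on log scales, for the 219 precursors with a mean of at least 10 counts, where an arm at 0 is drawn at the edge. The gray line marks equal levels. Most points lie far from it, 107 below and 103 above in all 3 rats, and the 9 undecided ones lie close to it.

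Among the neural miRNAs, miR-9a-5p and miR-128-3p were far above the rest. miR-218a-5p, known from motor neurons, had 10620, 8264 and 13108 CPM and miR-129-5p had 5733, 6665 and 5407 CPM. miR-124-3p, the best-known miRNA of neurons, reached 2674, 2760 and 2864 CPM and was 47th in order. miR-9a-3p, from the opposite arm of miR-9a-5p, had 2007, 1381 and 3637 CPM and was highest in rat 3. Lower levels were found for miR-132-3p (876 ± 70.3 CPM), miR-138-5p (315 ± 16.1 CPM), miR-124-5p (71.0 ± 11.1 CPM), miR-212-3p (53.8 ± 3.66 CPM), miR-137-3p (12.0 ± 6.90 CPM) and miR-153-3p (2.15 ± 0.681 CPM).

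The oligodendrocyte list was carried by miR-219a-2-3p and miR-338-5p. miR-219a-2-3p made up 72.7% of the list, while miR-219a-5p, the strand most often studied in myelination, had 5.10, 4.23 and 6.22 CPM. miR-338-5p had 6017, 6501 and 5467 CPM against 23.4, 19.2 and 30.4 CPM for miR-338-3p. miR-219a-1-3p was at 9.78 ± 0.467 CPM. In each rat the arms of miR-338 were thus far apart.

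Among the miRNAs of the HOX clusters, miR-10a-5p made up 80.7% of the list and was followed by miR-10b-5p (3441 ± 166 CPM). miR-196a-5p (305 ± 33.3 CPM) and miR-196b-5p (212 ± 5.40 CPM) were above miR-615 (12.0 ± 0.979 CPM) and miR-196c-5p (4.39 ± 0.600 CPM). The vascular list summed to 24215, 21260 and 30725 CPM and was highest in rat 3. It was led by miR-126a-3p (66.4%) and miR-143-3p, a miRNA of smooth muscle, with 7556, 6595 and 9235 CPM. miR-145-5p, which is made with miR-143, did not follow that order and had 458, 506 and 447 CPM. miR-126a-5p was at 198 ± 75.6 CPM, miR-145-3p at 57.5 ± 3.15 CPM and miR-143-5p at 16.4 ± 5.56 CPM.

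Markers of blood cells were uneven. miR-146a-5p (1313 ± 147 CPM), miR-150-5p (1244 ± 110 CPM) and miR-342-3p (663 ± 105 CPM) carried the list of white blood cells and microglia. miR-155-5p stood at 25.5 ± 0.838 CPM and miR-223-3p, a miRNA of neutrophils, at 2.24, 0.651 and 1.62 CPM. miR-142-3p and miR-142-5p were listed at 0, as were miR-451-5p, miR-144-3p and miR-144-5p of red blood cells. Because miR-21-5p was at 0 as well, these zeros were not used to judge the blood content of the samples.

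Of the remaining lists, miR-183-5p (1069 ± 29.8 CPM), miR-182 (1000 ± 64.9 CPM) and miR-96-5p (102 ± 23.4 CPM), a cluster known from sensory ganglia, were all above 3 counts in every library. miR-204-5p, abundant in choroid plexus but also made elsewhere, had 3811, 4393 and 3249 CPM. The others of that list were miR-1298 (390 ± 60.5 CPM), miR-448-3p (26.3 ± 8.40 CPM), miR-211-5p (8.92 ± 2.32 CPM) and miR-448-5p (3.49 ± 0.0968 CPM). miR-192-5p (256 ± 95.9 CPM) and miR-194-5p (193 ± 55.5 CPM) led the liver, gut and pancreas list, followed by miR-375-3p (80.9 ± 10.5 CPM), miR-217-5p (28.0 ± 1.22 CPM) and miR-216a-5p (3.76 ± 0.608 CPM). The hepatocyte miRNA miR-122-5p had 4.89, 11.1 and 3.25 CPM and was highest in rat 2. In the muscle list miR-499-5p (156 ± 72.2 CPM) and miR-133a-3p (75.1 ± 8.23 CPM) were above miR-1-3p (13.7 ± 1.61 CPM), miR-133b-3p (13.1 ± 2.35 CPM) and miR-206-3p (5.76 ± 0.602 CPM), and miR-208a-3p and miR-208b-3p were listed at 0. Of the epithelial list, miR-205 (9.35 ± 1.12 CPM), miR-203a-3p (7.16 ± 1.95 CPM), miR-200c-3p (3.72 ± 0.951 CPM), miR-200b-3p (2.25 ± 0.678 CPM) and miR-200a-3p (0.641 ± 0.185 CPM) were above 3 counts in every library. miR-429 had 2, 2 and 7 counts and miR-141-3p had 3, 0 and 1.

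The spread between the 3 rats was then measured over the 452 miRNAs with a mean of at least 10 counts. Their median coefficient of variation (CV, the SD over the mean of CPM) was 14.0%, whereas counting alone would give 3.50%. It was 24.7% for the 113 miRNAs with 10 to 100 counts and 9.72% for the 31 with at least 100000 counts. In the weakest class counting gave a median of 17.2%. The ratio of measured to counting CV, taken for each miRNA, had a median of 1.35 in that class and 52.0 in the strongest. A CV over 50% was found for 17 miRNAs and a CV under 10% for 150. The common biological coefficient of variation, edgeR's estimate of the spread beyond counting, was 19.6%. Without rat 3 the median CV was 8.80% and the common estimate 12.6%, and without rat 2 they were 10.5% and 17.3%. Without rat 1 they were 16.6% and 24.98%. Each of these values rests on 2 libraries, and what set the spread was not tested.

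Rats 1 and 2 were the most alike and rats 2 and 3 the least. Over the 452 miRNAs, across which the values are not independent, Pearson's r of log2(CPM + 1) was 0.997 between rats 1 and 2, 0.995 between rats 1 and 3 and 0.991 between rats 2 and 3. The median size of the log2 ratio was 0.18, 0.21 and 0.34 for the same pairs. More than a 2-fold difference was found for 14, 18 and 43 miRNAs, and 36 of the 43 were higher in rat 3 than in rat 2. Rat 3 was the one farthest from both others for 226 miRNAs, rat 2 for 160 (35.4%) and rat 1 for 66 (14.6%). Chi-square over its degrees of freedom was taken as a check for 1 library sequenced or deposited again. It would be near 1 for new reads of the same library and lower for identical counts. The pairs gave values from 158 to 635.

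The 10 most variable of the miRNAs with a mean of at least 100 counts were miR-374-3p, miR-539-3p, miR-136-3p, miR-137-3p, miR-384-3p, miR-9a-3p, miR-340-5p, miR-369-3p, miR-376b-3p and miR-499-5p. All 10 were highest in rat 3 and lowest in rat 2. miR-374-3p had 11.9, 9.11 and 29.5 CPM (CV 65.8%) and miR-539-3p had 9.30, 5.79 and 20.6 CPM (CV 64.9%). miR-136-3p had 98.7, 71.7 and 222 CPM and miR-384-3p had 130, 82.4 and 247 CPM. For the last of the 10, miR-499-5p, the values were 133, 97.9 and 237 CPM (CV 46.4%). Of the miRNAs with at least 1000 counts, miR-326-3p (312, 315 and 317 CPM, CV 0.780%) and miR-496-3p (173, 172 and 170 CPM, CV 0.917%) varied least, followed by miR-100-5p (CV 1.40%), miR-93-5p (CV 1.46%) and miR-1839-5p (CV 1.59%). With 3 values a CV this low can arise by the draw of rats, and for miR-326-3p, miR-496-3p and miR-93-5p it was no higher than that of counting alone (1.48%, 1.997% and 1.46%).

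The variable miRNAs had AU-rich sequences, as these examples with the seed in capitals show (RefSeq, GRCr8).
miR-374-3p: cUUAGCACguuguauuauuauu
miR-384-3p: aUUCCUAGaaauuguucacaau
miR-369-3p: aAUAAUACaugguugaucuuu
miR-9a-3p: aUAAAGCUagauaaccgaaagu
The least variable one is shown beside them.
miR-326-3p: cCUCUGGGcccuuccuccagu
GC content ranged from 23.8% to 40.9% over the 10 most variable miRNAs. Among the 5 least variable it was 66.7% in miR-326-3p, 42.9% in miR-496-3p, 50% in miR-100-5p, 52.2% in miR-93-5p and 40.9% in miR-1839-5p, so these reached down to the upper end of the former range. Over the 317 miRNAs with a sequence and a mean of at least 100 counts, Spearman's rho between GC content and the log2 ratio of 2 libraries was 0.554 for rat 2 over rat 1, -0.466 for rat 3 over rat 1 and -0.572 for rat 3 over rat 2. With the length of the mature sequence the rho was 0.0823, -0.0909 and -0.0772. Over 4 classes of rising GC content (78, 71, 87 and 81 miRNAs) the median log2 ratio of rat 3 over rat 2 was 0.57, 0.22, -0.13 and -0.15. The 3 ratios share libraries and the miRNAs share families, so these are descriptions without a test. GC content moved with the differences between the libraries, and its part in the spread was not tested.

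**Figure D5:**
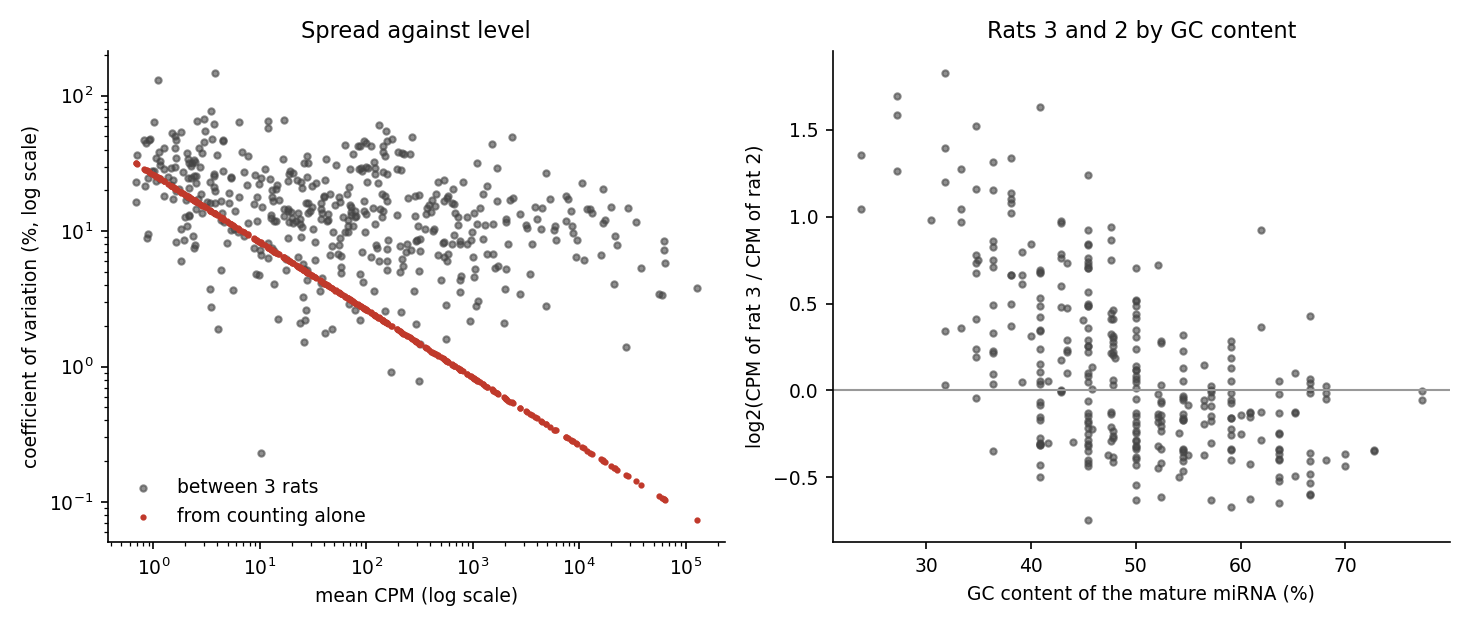
Left, the coefficient of variation between the 3 sham-operated rats against mean level for 452 miRNAs (gray), with the value that counting alone gives (red), both axes on log scales. Right, the log2 ratio of the level in rat 3 over rat 2 against the GC content of the mature sequence for 317 miRNAs. The spread exceeds counting for most miRNAs above a few CPM, and the ratio falls from a median of 0.57 in the lowest of 4 GC classes to -0.15 in the highest.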

How the data were processed

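Small RNA of the lumbar cord was sequenced in 3 sham-operated rats, and 3 rats with tumors were not analysed here. The authors made NEBNext libraries and cleaned the reads (FASTX Toolkit 0.0.13). Reads between 18 and 40 bases long were placed on Rnor_6.0, with Bowtie2 2.2.3 according to the submitters' processing notes. Known miRNAs were identified with miRBase 22.0 and, per the methods, a length of 21 to 22 bases, although the table also lists miRNAs of other annotated lengths. What the authors deposited are read counts for each mature miRNA that were not normalized. Counts were scaled to CPM of the column total in Python 3.11.15. The biological coefficient of variation was estimated with edgeR 4.0.16 (TMM, R 4.3.3) and its estimate was tested on simulated data.

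Sequences came from RefSeq (GRCr8), another assembly than that of the counts, so no coordinates are given. The miRNAs named were the 20 most abundant, the 10 leading seed families, the 5 precursors most lopsided toward each arm and those within 1.5-fold at 1000 counts or more, the 10 most and 5 least variable, and every listed member of 12 marker lists (miR-486, miR-302a-3p and miR-302b-3p were not among the names used here). Those at 0, and the groups of neighbouring precursors, were singled out after their values were seen. Members and lists were chosen with earlier results of these data known. Alternatives were TMM and DESeq2 1.42.0 size factors, other count minimums, thinning to the smallest total, other seed definitions, and leaving out each rat.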

Additional observations from a re-analysis of the deposited data

How the results depend on the processing

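The shares of the most abundant miRNAs, the numbers that hold 50% and 90%, the number above 3 counts and the let-7 share moved by less than the spread between rats, or by less than 1.5 times for numbers, under each alternative tried. The span of levels (5.60 orders of magnitude) was 5.17 with at least 10 counts, 6.27 with at least 1 count, 5.53 after thinning to the smallest total, and 5.66 to 5.67 without 1 rat. The 5p arm led in 51.0% of the decided precursors, in 52.2% with a sum of at least 100 counts, in 49.3% when dominance was taken from the mean, and in 49.8% to 51.2% without 1 rat, so neither arm was the more frequent leader across settings. The 9 undecided precursors became 3 with at least 100 counts, 28 with at least 1 count, 0 by the mean, which leaves none undecided by construction, and 3 to 8 without 1 rat. Median CV ranged from 8.80% to 16.6% and the common biological coefficient of variation from 12.6% to 24.98% without 1 rat, both lowest without rat 3. Summed levels of the 11 marker lists with counts moved by less than the spread between rats. The median ratio of arms without the precursors that have an arm at 0, an alternative chosen after seeing the data, is given in the text. No paired analysis was possible because the description holds 1 group and no comparison between groups. Depth limits the weaker arms and the miRNAs below about 10 counts.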

Other observations

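Precursors that lie within 10000 bases of each other on 1 strand (GRCr8 annotation) can be made from 1 transcript, and 51 such groups held 290 of the 661 mature miRNAs with a single precursor in RefSeq. The group of 9 precursors around miR-127 and miR-434, part of which is transcribed antisense to the imprinted Rtl1 gene, held 80461, 86457 and 78218 CPM in rats 1, 2 and 3. Within it miR-127-3p made up 78.5%, and the lowest of its 15 mature miRNAs was at 1.98 CPM. The larger group of 31 precursors in the same imprinted region, with 59 mature miRNAs, summed to 26174, 25934 and 27275 CPM. It was spread more evenly, as miR-543-3p, its highest, made up 21.95%. The group of miR-125a, miR-99b and let-7e held 28610 ± 3555 CPM (SD, n = 3), with miR-125a-5p at 46.4% of it. In the group of miR-27b, miR-23b and miR-24-1 (14565 ± 1794 CPM) miR-27b-3p made up 87.7%. That sum leaves out miR-24-3p (3599 ± 288 CPM), which has 2 precursors and could not be placed in 1 group. In the group of miR-191a and miR-425 (11157 ± 663 CPM) miR-191a-5p made up 98.9%. Members of 1 group thus differed in count by up to several orders of magnitude within each library.

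The order rat 3 above rat 1 above rat 2 was found for 128 (37.8%) and the opposite order for 110 (32.4%) of the 339 miRNAs with a mean of at least 100 counts. Median GC content was 42.9% in the former and 52.4% in the latter, and it was 52.4% in the 101 with any other order.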
